A study of Mus musculus with 12 samples.

Results

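Axl and Mertk, 2 receptor tyrosine kinases of macrophages, and Gas6 and Pros1, the genes of their ligands, were followed through mouse bone marrow derived macrophages (BMDMs) given medium conditioned by neuroblastoma cells. The genes were chosen by name and matched by their Ensembl identifiers, which gave all 4 genes among the 54232 genes of the count table. In GENCODE M21 on GRCm38, Axl (ENSMUSG00000002602) spans chr7:25757273-25788705 on the minus strand, Mertk (ENSMUSG00000014361) chr2:128698956-128802894 on the plus strand, Gas6 (ENSMUSG00000031451) chr8:13465374-13494490 on the minus strand and Pros1 (ENSMUSG00000022912) chr16:62854307-62929346 on the plus strand, and counts refer to the merged exons of each. Each of the 4 was among the 16281 genes with enough counts to be tested. The study asked whether products of neuroblastoma cells turn macrophages toward an immunosuppressive state, and whether R788, an inhibitor of the tyrosine kinase Syk, acts against it.

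BMDMs came from wild-type C57BL/6 mice, 6 to 8 weeks old by the methods of the study, and were grown with the growth factor M-CSF for 5 days. They were then kept for 24 h under 6 conditions with 2 libraries each. NS cells had neither tumor-conditioned medium (TCM) nor R788. NB9464 TCM and NBT3L TCM cells had medium from NB9464, a MYCN-amplified mouse neuroblastoma line, or from NBT3L, a line without that amplification. R788 at 500 nM was given alone (R788) or with either medium (NB9464 TCM + R788, then NBT3L TCM + R788). The methods describe NB9464 TCM as serum-free DMEM collected after 48 h, while the base medium of NS cells, the vehicle of R788 and the preparation of NBT3L TCM were not given in the sources used here. In comparisons with NS, tumor cell products thus cannot be told apart from a change of base medium or serum. Each line gave medium of unstated batches, so a difference between the media compares these preparations. Nothing states that the 2 libraries of a group came from separate mice or cultures, and p-values then measure only the spread between these libraries.

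TAM receptors (Tyro3, Axl and Mertk) bind dying cells through bridging ligands that hold exposed phosphatidylserine on one side and the receptor on the other. Gas6 can activate all 3 receptors, whereas protein S, the product of Pros1, acts on Tyro3 and Mertk. Macrophages use the receptors to engulf dying cells and to dampen inflammatory signaling, with Mertk typical of resting and steroid-treated macrophages and Axl of inflamed or interferon-exposed ones. The ligands need vitamin K dependent carboxylation to bind the lipid.

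The promoter sequences of the 4 genes are shown because their mRNAs moved together in some conditions and apart in others. Each is 300 bases in RefSeq on GRCm38.p6, from 250 bases before the annotated start to 50 after it, 5′ to 3′ on the gene's own strand. Axl is at chr7:25788684-25788983 on the minus strand, Mertk at chr2:128698665-128698964 on the plus strand, Gas6 at chr8:13494486-13494785 on the minus strand and Pros1 at chr16:62854057-62854356 on the plus strand. Capitals mark the GC box (GGGCGG on either strand) and, in Pros1 alone of the 4, a GAS element (TTCNNNGAA), the letters to which STAT proteins bind.
Axl: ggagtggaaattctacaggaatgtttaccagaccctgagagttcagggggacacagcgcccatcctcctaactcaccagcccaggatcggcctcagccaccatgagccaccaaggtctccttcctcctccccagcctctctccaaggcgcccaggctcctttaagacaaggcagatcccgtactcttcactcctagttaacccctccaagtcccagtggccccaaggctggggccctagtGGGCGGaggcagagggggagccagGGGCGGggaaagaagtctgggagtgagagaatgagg
Mertk: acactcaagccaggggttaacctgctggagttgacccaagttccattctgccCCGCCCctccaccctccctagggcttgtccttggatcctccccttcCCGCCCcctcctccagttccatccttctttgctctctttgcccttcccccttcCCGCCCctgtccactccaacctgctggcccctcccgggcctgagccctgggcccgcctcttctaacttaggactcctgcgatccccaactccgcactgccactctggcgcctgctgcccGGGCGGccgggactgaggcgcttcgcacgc
Gas6: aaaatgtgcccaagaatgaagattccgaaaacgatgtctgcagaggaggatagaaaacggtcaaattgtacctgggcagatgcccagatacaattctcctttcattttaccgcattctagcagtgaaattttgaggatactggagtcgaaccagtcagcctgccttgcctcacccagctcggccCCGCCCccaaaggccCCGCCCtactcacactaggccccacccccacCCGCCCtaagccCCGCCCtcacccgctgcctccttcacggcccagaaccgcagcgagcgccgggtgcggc
Pros1: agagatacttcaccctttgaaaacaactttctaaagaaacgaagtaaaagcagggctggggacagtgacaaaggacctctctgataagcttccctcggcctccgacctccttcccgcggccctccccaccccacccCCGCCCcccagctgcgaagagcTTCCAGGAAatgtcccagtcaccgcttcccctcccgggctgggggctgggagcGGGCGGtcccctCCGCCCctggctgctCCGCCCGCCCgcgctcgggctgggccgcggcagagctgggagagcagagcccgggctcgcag

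The GC box was present 2 times in Axl, 4 times in Mertk, 4 times in Gas6 and 5 times in Pros1, where matches may overlap. It is found in 35.9% of the 32544 mouse promoters of this length. The GAS element of Pros1 is found in 8.33% of them. Searched on both strands, none of the 4 windows held the TATA box TATAAA, present in 13.6% of promoters, the E-box CACGTG (7.17%), the AP-1 site TGANTCA (7.79%), an interferon-stimulated response element (3.45%) or the nuclear receptor letters AGGTCA (16.2%). GC content was 60.3% in Axl, 66.0% in Mertk, 58.3% in Gas6 and 66.7% in Pros1, against a median of 53.0%. These matches describe the letters of 1 window per gene and say nothing of binding.

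Library totals were between 44977847 and 56449685 counts, which gave every member from 132 counts upward in each library. Library SJ8 of the R788 group stood apart with 16149 genes detected, against 17275 to 18343 in the others. The SD of the log2 difference between the 2 libraries was 0.371 in the R788 pair and between 0.230 and 0.261 in the other pairs. For the members, R788 against NS is therefore also given without SJ8, as are some but not all other results that use SJ8. All 8 macrophage markers examined, Adgre1 and Csf1r among them, were detected in every library.

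In these macrophages the gene of Gas6 was the most abundant of the 4. Per length, Gas6 reached 303 TPM (counts scaled by gene length and library sum) in NS, a level above 97.1% of the genes tested, while Mertk had 37.2, Axl 25.8 and Pros1 20.7 TPM. Tyro3, the remaining receptor of the family, was near the lower limit of counting, with 0 to 30 raw counts and at most 0.239 TPM per library. Both TCM lowered Axl, Gas6 and Pros1, and the media differed for Mertk, which NB9464 TCM raised and NBT3L TCM lowered. R788 raised Mertk and Gas6 in each medium, gave no called change of Pros1, and moved Axl in opposite directions in the 2 TCM. The rises of Axl and Gas6 in NB9464 TCM were not called by edgeR. Their size, and that of the Axl fall in NBT3L TCM, depended on which library was left out, as given below.

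**Figure D1:**
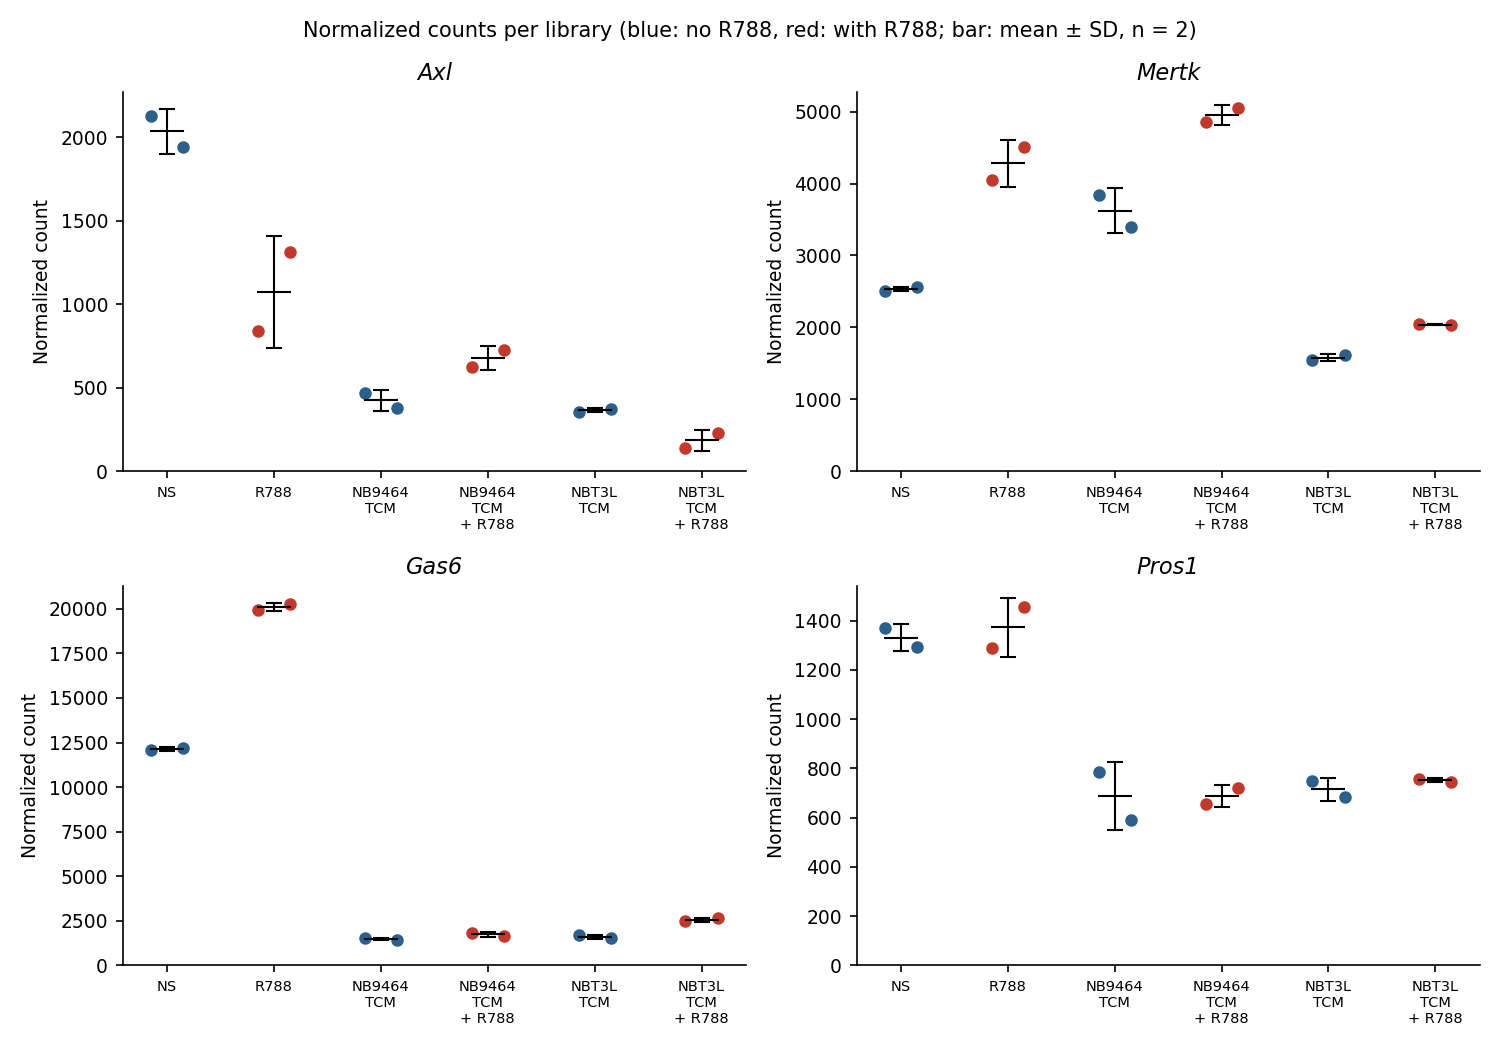
Normalized counts (linear axes from 0) of Axl, Mertk, Gas6 and Pros1 in each of the 12 libraries by group, with points for libraries and bars for the mean ± SD of 2 libraries. Axl and Gas6 are highest without TCM, and Pros1 separates only into libraries with and without TCM. On this scale Mertk is highest in NB9464 TCM + R788 (by TPM in R788) and lowest in NBT3L TCM.

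Axl encodes the receptor that binds Gas6 but not protein S. NS libraries had 2131 and 1942 normalized counts of Axl. With NB9464 TCM it had 469 and 379, and with NBT3L TCM 356 and 372. Each library with TCM was below each NS library. NB9464 TCM lowered Axl 4.81-fold (log2 fold change −2.26 ± 0.23 SE, adjusted p = 3.38e-22) and NBT3L TCM lowered it 5.59-fold (−2.48 ± 0.23, adjusted p = 4.66e-26). Of the 4 genes, 1 was higher and 3 were lower with NB9464 TCM, a contrast in which 34.1% of all genes tested were called at an adjusted p under 0.05, 17.2% higher and 16.9% lower. With NBT3L TCM all 4 were lower, where 35.3% of all genes were called, 18% higher and 17.3% lower.

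R788 did not move Axl one way. R788 libraries without TCM had 839 and 1313 normalized counts of Axl, both below NS (1.89-fold, −0.92 ± 0.22, adjusted p = 0.000291). The 1313 belonged to SJ8. The difference was −1.28 without SJ8 (adjusted p = 3.52e-07) and −0.63 without SJ7 (adjusted p = 0.0214). In NB9464 TCM, R788 gave 627 and 729 in place of 469 and 379, which was higher by 1.60-fold (0.68 ± 0.23, adjusted p = 0.0213). That rise was lost by edgeR's quasi-likelihood test, with an adjusted p of 0.0506, and without library SJ4 (0.53, adjusted p = 0.212) or SJ10 (0.56, adjusted p = 0.217). In NBT3L TCM the R788 libraries had 140.0 and 229 in place of 356 and 372, a 1.97-fold lower level (−0.98 ± 0.24, adjusted p = 0.000695). Without SJ11, the lower of them, the difference was −0.67 (adjusted p = 0.0983).

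The test of the difference between media was also met for Axl. Its R788 effect was higher in NB9464 TCM than without TCM by 1.60 ± 0.32 on the log2 scale (adjusted p = 1.72e-05) and higher in NB9464 TCM than in NBT3L TCM by 1.66 ± 0.33 (adjusted p = 0.000375). The former was 1.96 without SJ8 (adjusted p = 4.32e-09). The latter had an adjusted p of 0.0576 in edgeR, a test in which only 21 genes of the whole table were called against 115 by DESeq2. Between NBT3L TCM and no TCM the R788 effect on Axl differed by −0.060, with a 95% interval from −0.70 to 0.58. Without SJ8 this difference was 0.30. For NB9464 TCM against no TCM 1 member was called higher and 1 lower, beside 12.5% of all genes (6.22% higher and 6.26% lower). For NBT3L TCM against no TCM 1 member was called lower, beside 10.1% of all genes (5.17% higher and 4.96% lower). Between the TCM 1 member was called higher and 1 lower, beside 0.706% of all genes (0.283% higher and 0.424% lower). As the mean over the 3 media, R788 gave a difference of −0.41 ± 0.13 in Axl (adjusted p = 0.00984), a value that averages opposite directions. It was −0.53 without SJ8 and −0.31 without SJ11 (adjusted p = 0.0669). In that averaged contrast 2 members were higher and 1 lower, beside 29.6% of all genes (13.4% higher and 16.2% lower).

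In order, Axl was highest in NS, then in R788, NB9464 TCM + R788, NB9464 TCM, NBT3L TCM and NBT3L TCM + R788. The 2 libraries of neighboring groups did not overlap at any step. The narrowest step, NB9464 TCM over NBT3L TCM, was not called (0.22 ± 0.23, 95% interval −0.24 to 0.67, adjusted p = 0.658). With R788 in both media Axl was 3.67-fold higher in NB9464 TCM than in NBT3L TCM (1.87 ± 0.24, adjusted p = 2.91e-13).

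Mertk encodes the receptor that macrophages use most to clear apoptotic cells. NS libraries had 2510.4 and 2557 normalized counts of Mertk. NB9464 TCM libraries had 3847 and 3401, and NBT3L TCM libraries had 1543 and 1617. The media thus stood on opposite sides of NS with no overlap. Mertk rose 1.43-fold with NB9464 TCM (0.52 ± 0.090, adjusted p = 8.38e-08) and fell 1.60-fold with NBT3L TCM (−0.68 ± 0.093, adjusted p = 2.53e-12). Between the media it was 2.29-fold higher in NB9464 TCM than in NBT3L TCM (1.20 ± 0.092, adjusted p = 7.8e-36). In that contrast it was the only one of the 4 called, beside 9.4% of all genes (3.69% higher and 5.72% lower). With R788 in both media the difference was 2.43-fold (1.28 ± 0.091, adjusted p = 2.3e-42), and 2 members were higher in NB9464 TCM and 1 lower, beside 9.62% of all genes (3.53% higher and 6.09% lower).

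R788 raised Mertk in every medium. Without TCM the R788 libraries had 4054 and 4508 normalized counts, both above NS by 1.69-fold on average (0.76 ± 0.090, adjusted p = 1.31e-15) and 0.68 without SJ8 (adjusted p = 2.87e-10). In NB9464 TCM they had 4855 and 5055, or 1.37-fold more than without R788 (0.45 ± 0.089, adjusted p = 9.73e-06). In NBT3L TCM they had 2043 and 2035, or 1.29-fold more (0.37 ± 0.094, adjusted p = 0.00122), a call lost without SJ5 (0.33, adjusted p = 0.0533). With R788 alone 2 of the 4 genes were higher and 1 lower, beside 26.6% of all genes called (11.6% higher and 15% lower). In NB9464 TCM R788 left 3 higher (Axl and Gas6 not in edgeR) and 0 lower. Beside them 14.5% of all genes were called (5.79% higher and 8.7% lower). In NBT3L TCM 2 were higher and 1 lower, beside 12.6% of all genes (5.33% higher and 7.24% lower).

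As the mean of the 3 media the R788 effect on Mertk was 0.53 ± 0.053 (adjusted p = 5.93e-22). It was smaller in NBT3L TCM than without TCM by 0.39 ± 0.13 on the log2 scale (difference −0.39, adjusted p = 0.0252), which edgeR did not call (adjusted p = 0.065) and which was lost when any 1 of 7 of the 8 libraries involved was left out, SJ7 being the exception (adjusted p between 0.0602 and 0.147 in the 7). Without SJ8 it was −0.31 (adjusted p = 0.115). The corresponding difference for NB9464 TCM was −0.31 ± 0.13 (adjusted p = 0.084), and it passed without SJ4 (−0.39, adjusted p = 0.0369) or SJ7 (−0.38, adjusted p = 0.0217). Between the TCM the R788 effects differed by 0.084, with a 95% interval from −0.17 to 0.34. From the top, the order of Mertk in normalized counts was NB9464 TCM + R788, R788, NB9464 TCM, NS, NBT3L TCM + R788 and NBT3L TCM, with no overlap of neighbors. In TPM the top of this order was reversed, with R788 at 61.9 and 71.0 and NB9464 TCM + R788 at 55.5 and 60.6. No contrast of those groups was run, so which of them had more Mertk depends on the scaling.

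**Figure D2:**
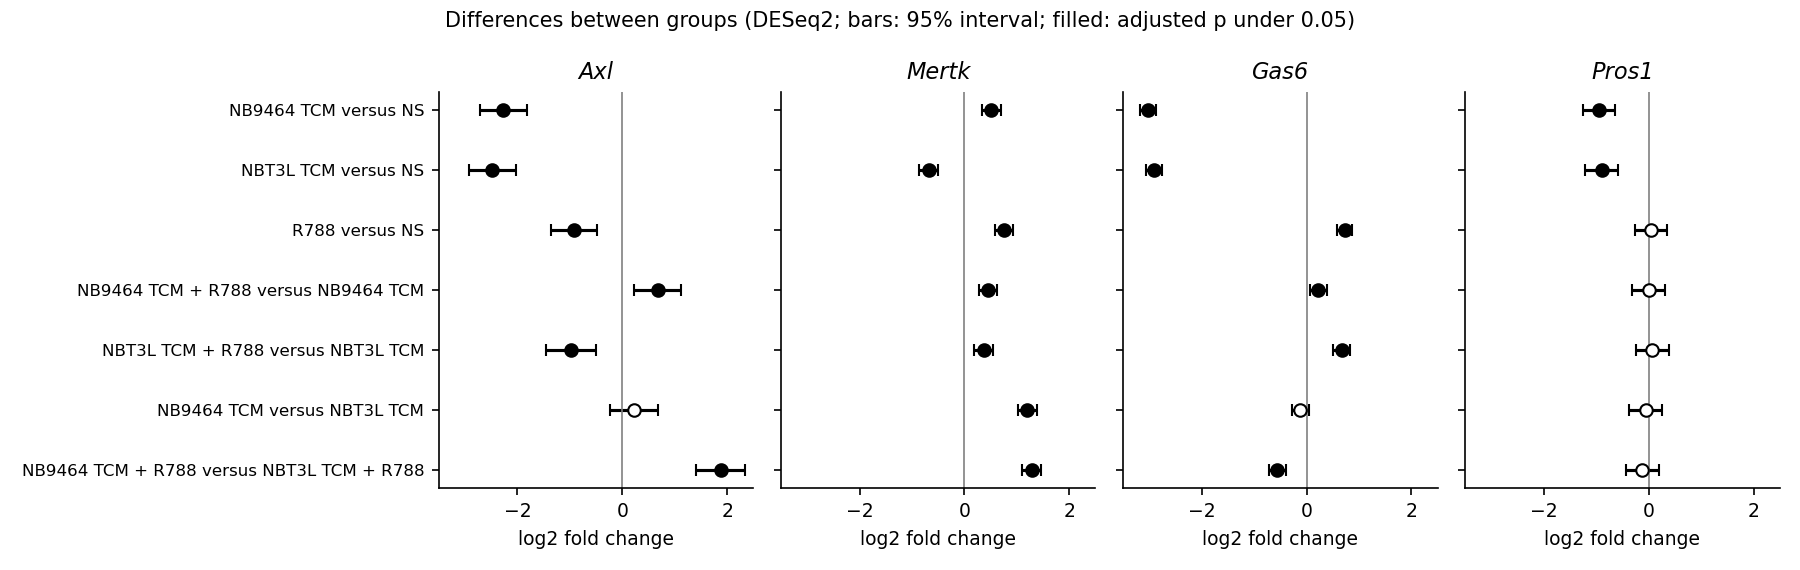
Log2 fold changes of each gene in 7 comparisons, with 95% intervals from DESeq2 and filled points for an adjusted p under 0.05. The TCM rows show Mertk on opposite sides of 0, and the 3 R788 rows show Axl below 0, above 0 and below 0 (−0.92, 0.68 and −0.98).

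Gas6 is the ligand that all TAM receptors bind, and of the 4 mRNAs it had the largest fold change in both TCM. NS libraries had 12059 and 12209 normalized counts of Gas6. With NB9464 TCM it had 1539 and 1432, and with NBT3L TCM 1694 and 1525. No library with TCM came near an NS library. NB9464 TCM lowered Gas6 8.17-fold (−3.03 ± 0.078, adjusted p too small to be written in double precision) and NBT3L TCM lowered it 7.54-fold (−2.92 ± 0.079, adjusted p = 7.66e-296). In these bulk samples fewer cells that express a gene and less RNA per cell cannot be told apart.

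R788 raised Gas6 in each medium, by unequal amounts. R788 libraries without TCM had 19936 and 20253 normalized counts, the highest of all, 1.66-fold above NS (0.73 ± 0.074, adjusted p = 6.23e-21; 0.72 without SJ8). In NBT3L TCM they had 2469 and 2646, which was 1.59-fold higher than without R788 (0.67 ± 0.081, adjusted p = 1.06e-14). In NB9464 TCM they had 1837 and 1635, only 1.17-fold higher (0.23 ± 0.082, adjusted p = 0.0343). That smallest rise was lost in edgeR (adjusted p = 0.0827), with counts divided by 2 (adjusted p = 0.054), with only the compared libraries fitted (adjusted p = 0.237), without SJ4 (0.17, adjusted p = 0.273) and without SJ9 (0.14, adjusted p = 0.476). As the mean of the media Gas6 rose by 0.54 ± 0.046 (adjusted p = 1.4e-30).

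The R788 effect on Gas6 was smaller in NB9464 TCM than without TCM (−0.50 ± 0.11, adjusted p = 0.000122, and −0.49 without SJ8, adjusted p = 0.000624). It was also smaller than in NBT3L TCM (−0.44 ± 0.12, adjusted p = 0.023), a call that edgeR did not make (adjusted p = 0.187) and that was lost without SJ3, SJ6, SJ10, SJ11 or SJ12 (adjusted p between 0.0557 and 0.327). NBT3L TCM and no TCM differed by −0.059, with a 95% interval from −0.27 to 0.16. Between the media themselves Gas6 differed by −0.11 ± 0.083 without R788 (95% interval −0.28 to 0.047, adjusted p = 0.442) and was 1.47-fold lower in NB9464 TCM with R788 (−0.56 ± 0.080, adjusted p = 2.97e-10). From R788 through NS to NBT3L TCM + R788 and NB9464 TCM + R788 the levels of Gas6 did not overlap. Below that, NB9464 TCM + R788 overlapped NBT3L TCM and NBT3L TCM overlapped NB9464 TCM.

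Markers of other cell types also moved with R788 and TCM. All 6 fibroblast markers were detected in every library, and their summed normalized counts were 1308 to 1669 in NS and 2649 to 3058 in R788. They were 1581 to 1733 in NB9464 TCM and 2252 to 2479 with R788, and 1938 to 2166 in NBT3L TCM and 3501 to 3550 with R788. The sum was thus higher with R788 in each medium, as Gas6 and Mertk were, but not every marker was. Col1a1, the gene of a collagen chain, went from a mean of 577 in NS to 1356 in R788. Col1a2, Col3a1 and Pdgfra were also higher with R788 in each medium. Dcn was lower in each (29.6 and 12.5 without TCM, 54.7 and 25.8 in NB9464 TCM, 82.0 and 31.1 in NBT3L TCM). Pdgfrb was lower with R788 without TCM (138 and 77.1) and higher in NB9464 TCM (168 and 268). With TCM alone the sum was not lower than in NS, unlike Gas6 and Axl. Endothelial markers, 3 of 4 of them in every library, summed to 1439 to 1539 in NS, 763 to 1010 in R788 and 688 to 953 in the 2 TCM groups without R788, and to 823 to 940 with both. Of them Kdr was lower with TCM (1376 in NS, 107 and 424 in the TCM) and Pecam1 was higher (39.6 in NS, 562 and 436). The part of these cells in the results was not tested.

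Of 8 neuroblastoma markers, Th and Chga were at 0 in every library, and none had a mean of 100 normalized counts. Their sum was 9.48 to 10.3 in NS, 3.64 to 41.5 in R788 and 74.2 to 144 in the groups with TCM, beside 1.60e+06 to 2.66e+06 for the macrophage markers. Neutrophil markers, 3 of 6 in every library, summed to 2551 to 4329 without TCM and 6796 to 10339.5 with it. The largest part was S100a9 without TCM and S100a8 with it. S100a8 had a mean of 1265 for NS against 6043 (NB9464 TCM) and 7978 (NBT3L TCM). S100a9 was lower with TCM (2482 against 2052 and 1930), as were Mpo and Elane. Camp went from 226 to 182 with NB9464 TCM and to 325 with NBT3L TCM, and Ly6g stayed under 3.8. Dendritic cell markers stayed between 25.4 and 89.0, T cell markers between 8.89 and 164, B cell markers between 0 and 28.2, and mast cell markers between 0 and 23.8. Their part in the results was not tested either. Gas6 shares 34 exonic bases with Tmem255b on the opposite strand, which had 0 to 8 counts per library and 0 in all 8 libraries with TCM.

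Pros1 encodes protein S, a plasma anticoagulant that is also a TAM ligand. NS libraries had 1369 and 1291 normalized counts of Pros1 and R788 libraries 1287 and 1457. Libraries with NB9464 TCM had 785 and 589.9, and those with NBT3L TCM had 748 and 682. With R788 added the counts were 656 and 721 in NB9464 TCM and 757 and 746 in NBT3L TCM. Every library with TCM was below every library without it.

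Pros1 fell 1.94-fold with NB9464 TCM (−0.95 ± 0.16, adjusted p = 1.28e-08) and 1.86-fold with NBT3L TCM (−0.90 ± 0.16, adjusted p = 1.09e-07). R788 gave differences of 0.045 in the absence of TCM, 0.0021 with NB9464 TCM and 0.073 with NBT3L TCM. Their 95% intervals were −0.26 to 0.35, −0.31 to 0.32 and −0.24 to 0.39. With 2 libraries per group, changes within those bounds remain possible. Without SJ8 the difference without TCM was −0.049 (adjusted p = 0.888). Neither the media nor the R788 effects differed between themselves for Pros1 at the threshold. Neighbors in its order overlapped at every step except between NS and NBT3L TCM + R788, the step from no TCM to TCM.

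The balance of the receptors changed along with their levels. Per length, Axl was at 0.693 ± 0.055 (SD, n = 2) of Mertk in NS, 0.215 ± 0.051 in R788, 0.199 ± 0.00043 in NBT3L TCM and 0.100 ± 0.0063 in NB9464 TCM. It was at 0.118 ± 0.0092 in NB9464 TCM + R788 and at 0.078 ± 0.027 in NBT3L TCM + R788. Mertk was the more abundant receptor in all 12 libraries, by 1.37- to 1.53-fold in NS and by up to 16.9-fold in SJ11. As a share of receptor TPM, Axl held 40.9% ± 1.9 in NS, 17.6% ± 3.5 in R788 and between 7.21% and 16.6% on average in the groups with TCM. The log2 ratio of Axl to Mertk was lower with TCM than without by 1.73 (difference −1.73, 8 against 4 libraries, exact permutation test within R788 status, two-sided, p = 0.00444, adjusted p = 0.00889 over the 4 ratio comparisons). This p was the smallest that the 225 arrangements allow. For R788 the difference was −0.96 (6 against 6 libraries, exact permutation test within medium, p = 0.0556, adjusted p = 0.0556) and the group mean of the log2 ratio went from −3.32 to −3.09 in NB9464 TCM. As the mean of the within-medium differences it was between −1.08 and −0.84 with any 1 library left out, −1.04 without SJ8 (exact permutation p = 0.0556), and it passed without SJ4 or SJ10 (exact permutation p = 0.0463 each).

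**Figure D3:**
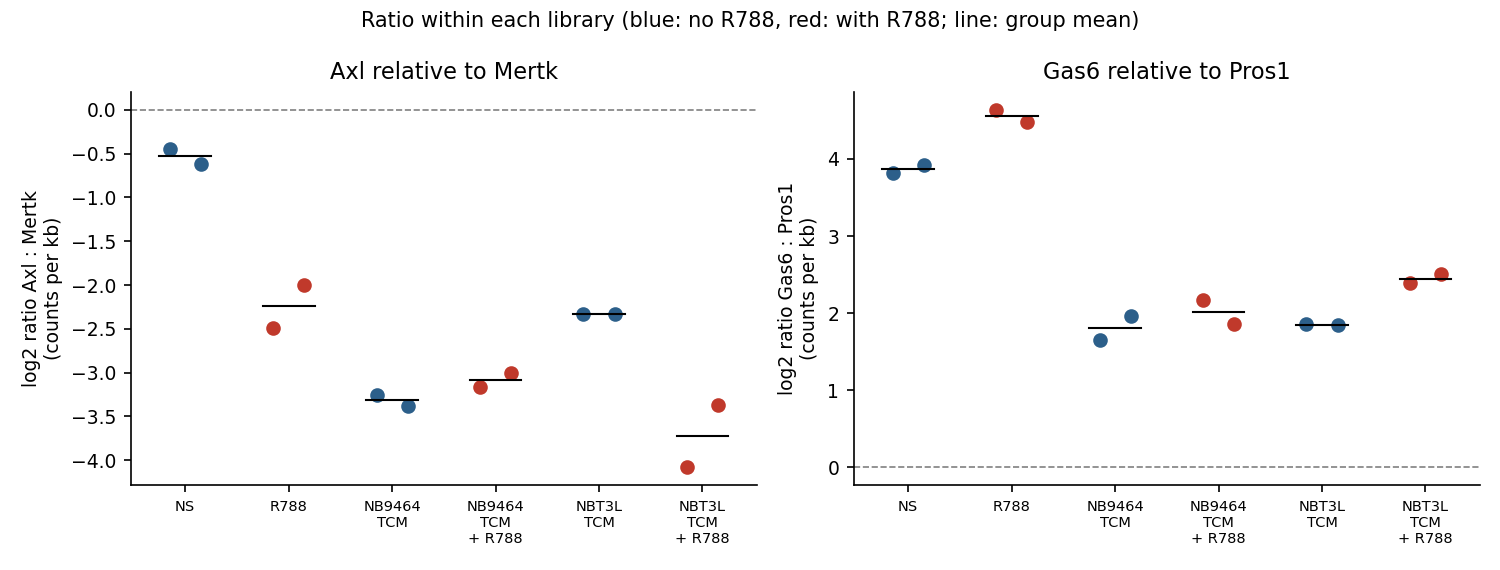
Log2 ratio of Axl to Mertk and of Gas6 to Pros1 in each library, in counts per kilobase, with the group mean as a line and the dashed line at equal level. All 12 libraries lie below 0 for Axl to Mertk and above 0 for Gas6 to Pros1, and in both panels the NS libraries lie above every library with TCM.

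Ligand mRNA also shifted in composition. Gas6 per length was 14.6 ± 0.73 times Pros1 in NS and 23.6 ± 1.8 times in R788. It was 3.52 ± 0.53 times in NB9464 TCM, 3.61 ± 0.034 in NBT3L TCM, 4.06 ± 0.60 in NB9464 TCM + R788 and 5.46 ± 0.33 in NBT3L TCM + R788. Gas6 remained the main ligand mRNA, at 93.6% of ligand TPM in NS and 77.7% in NB9464 TCM. The log2 ratio of Gas6 to Pros1 was lower with TCM by 2.18 (difference −2.18, exact permutation p = 0.00444, adjusted p = 0.00889). R788 raised it by 0.50 (exact permutation p = 0.0185, adjusted p = 0.0247). The R788 difference did not pass as a difference of medians (0.54, exact permutation p = 0.111). As the mean of the within-medium differences it was between 0.44 and 0.55 with any 1 library left out (exact permutation p at most 0.0278), and 0.52 without SJ8 (exact permutation p = 0.0185).

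Summed per length, Axl and Mertk came to 63.0 TPM in NS, 80.8 in R788, 49.2 in NB9464 TCM, 64.9 in NB9464 TCM + R788, 21.2 in NBT3L TCM and 24.6 in NBT3L TCM + R788. Gas6 and Pros1 together came to 324 TPM in NS, 553 in R788, 40.2 in NB9464 TCM, 43.1 in NB9464 TCM + R788, 39.1 in NBT3L TCM and 57.7 in NBT3L TCM + R788. Ligand mRNA thus exceeded receptor mRNA several times over without TCM, was below it in NB9464 TCM and remained above it in NBT3L TCM. These are mRNA levels, and no protein or receptor activity was measured in these files.

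By Pearson correlation of log2 normalized counts over the 12 libraries, the pattern most like that of Axl among 10715 genes was Heatr5a (0.964), and close to it were also Apobec3 (0.941), Tmem18 (0.931) and Taf5 (0.930). Nearest to Mertk were Phgdh (0.977), an enzyme of serine synthesis, Armc9 (0.976), Atf4 (0.967), a transcription factor of the amino acid and stress response, Dedd2 (0.963) and Klf13 (0.958). Genes most like Gas6 were Slc9a9 (0.996), Snx29 (0.994), Rgs10 (0.993), Igfbp4 (0.993) and Wwp1 (0.993). For Pros1 they were Socs6 (0.986), Cnot6l (0.983), Nudt4 (0.981), G2e3 (0.978) and Cep350 (0.978). These values describe 12 libraries that share group structure, and no member appeared among the nearest genes of another.

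Other phagocytic receptors and bridging proteins were examined beside the TAM genes. The gene lists used here and below were chosen with earlier results of these data known. Whether a list differs from all genes was not tested. Of 25 genes for phosphatidylserine and dying cell recognition, 21 were tested, and Timd4, Havcr1, Adgrb1 and Megf10 were too low. NB9464 TCM raised 2 and lowered 13 of the 21 (median log2 fold change −0.75, against 0.021 over all genes), where 17.2% of all genes were higher and 16.9% lower. NBT3L TCM raised 3 and lowered 11 (median −0.48, against 0), where 18% of all genes were higher and 17.3% lower. The complement genes C1qa, C1qb and C1qc, whose protein C1q binds dying cells, fell with Axl and Gas6, with log2 changes of C1qa of −2.46 ± 0.097 with NB9464 TCM (adjusted p = 1.26e-139) and of −2.74 ± 0.098 with NBT3L TCM (adjusted p = 2.29e-169). C1qc was at −2.16 with NB9464 TCM and −2.40 with NBT3L TCM, and C1qb at −1.93 and −2.11. Itgb5, a chain of the integrin that binds the bridging protein Mfge8, fell with NB9464 TCM (−1.74) and with NBT3L TCM (−2.12). Thbs1, thrombospondin, rose 6.08-fold with NB9464 TCM and 12.9-fold with NBT3L TCM (3.69 ± 0.059 on the log2 scale). Calr also rose with both (0.60 and 0.98), and Mfge8 was lower with NB9464 TCM (−0.51) and higher with NBT3L TCM (0.65).

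R788 changed genes of this list in both directions. Without TCM 3 were higher and 8 lower (8 became 4 without SJ1), beside 11.6% and 15% of all genes, led by Thbs1 (1.57), Calr (−0.80), Cd36 (−0.77) and Stab1 (0.71), of which Calr is the calreticulin that marks dying cells and Cd36 and Stab1 are scavenger receptors. In NB9464 TCM 4 were higher and 8 lower (4 became 2 without SJ3 and 1 without SJ9), beside 5.79% and 8.7% of all genes, with Cd300lf (−0.69), Stab1 (−0.69) and Havcr2 (−0.59, lost without SJ9) lower and C1qa (0.48) higher. In NBT3L TCM 5 were higher and 6 lower, beside 5.33% and 7.24% of all genes, with Cd300lf (−0.87), Havcr2 (−0.87) and Mfge8 (−0.66) lower and C1qc (0.60) higher.

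Genes of engulfment and digestion went both ways. Of 22 tested of 23, NB9464 TCM raised 6 and lowered 8 (17.2% and 16.9% of all genes) and NBT3L TCM raised 6 and lowered 9 (18% and 17.3% of all genes). Slc2a1, a glucose transporter, rose by 0.96 and 1.33, Vav1, an exchange factor for Rac, by 0.85 and 0.90, and Abca7, a lipid transporter, by 0.81 and 0.63. Dock1, an exchange factor for Rac downstream of phagocytic receptors, fell by 0.54 with NB9464 TCM, and Abcg1, a cholesterol exporter, fell by 1.72 with NBT3L TCM. R788 alone raised 2 and lowered 5 of the 22, beside 11.6% and 15% of all genes (4 and 8 without SJ8, and 1 raised without SJ1), among them Abcg1 (−1.40), Slc16a1 (−0.67), Slc2a1 (−0.51) and Abca7 (0.59). In NB9464 TCM it raised 5 and lowered 5, beside 5.79% and 8.7% of all genes, with Slc16a1, a lactate transporter, at −0.78, Vav3 at −0.61, Abcg1 at −0.53 and Ptk2 at −0.52. The 5 raised were 2 to 4 with 1 library left out, at 3 without SJ3 or SJ10 and at 2 without SJ9. In NBT3L TCM it raised 3 and lowered 4, beside 5.33% and 7.24% of all genes, with Slc16a1 at −0.58, Vav3 at −0.35 (lost without SJ6 or SJ12), Ucp2 at 0.31 and Abca7 at 0.22 (lost whichever of its 4 libraries was left out). The 3 raised became 1 without any 1 of SJ5, SJ6, SJ11 and SJ12, and the 4 lowered became 2 without SJ5 or SJ11 and 1 without SJ12.

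Signaling and feedback genes of the TAM pathway had their largest called rises with TCM in Socs3 and Socs1, the cytokine signaling inhibitors that TAM receptors are known to induce. Of 14 genes 13 were tested, with 3 higher and 4 lower in NB9464 TCM (17.2% and 16.9% of all genes) and 7 higher and 2 lower in NBT3L TCM (18% and 17.3% of all genes). Socs3 averaged 489 normalized counts in NS, 18506 with NB9464 TCM and 20825 with NBT3L TCM, a rise of 5.24 ± 0.18 and 5.41 ± 0.18 on the log2 scale. Socs1 rose by 2.17 and 3.41. Cblb, a ubiquitin ligase, fell (−1.03 and −0.90), and Adam10, a protease that sheds surface proteins, fell as well (−0.83 and −0.84). Socs3 and Socs1 rose in both TCM, in which Axl and both ligands fell, while Mertk rose with NB9464 TCM and fell with NBT3L TCM. Whether TAM receptors had a part in the rise of Socs3 and Socs1 was not tested.

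R788 alone raised 5 and lowered 5 of these 13, beside 11.6% and 15% of all genes. The 5 raised were 2 without SJ2 and 3 without SJ8. Without TCM Socs3 (−0.77), Socs1 (−0.77, adjusted p = 0.000227, and 0.123 with only the compared libraries fitted) and Cblb (−0.66) were among those that fell. In NB9464 TCM 4 were higher and 2 lower, beside 5.79% and 8.7% of all genes, with Socs3 at −0.48 (adjusted p = 0.0376), Pik3r1, a regulatory chain of PI3 kinase, at 0.41, and the interferon receptor chain Ifnar2 at 0.26 (adjusted p = 0.0481 and 0.107 in edgeR). The calls of Socs3 and Ifnar2 were lost whichever of the 4 libraries was left out. The 4 higher were 1 to 3 and the 2 lower were 1 whichever of its 4 libraries was left out. In NBT3L TCM 3 were higher and 2 lower, beside 5.33% and 7.24% of all genes, with Socs3 at −0.68, Pik3r1 at 0.33 (lost without SJ12) and Grb2 at 0.29, and the 3 higher became 1 without SJ12. Ifnar2 and Nr1h3 share exonic bases with a predicted gene on the same strand and Thbs1, Slc2a1 and Furin with one on the other strand, Stab1 overlaps Nt5dc2 and Ucp2 overlaps Dnajb13 on the other strand, and the levels of these genes are uncertain.

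The 6 genes of vitamin K dependent carboxylation and processing, all tested, gave 1 higher and 1 lower gene with each TCM, where 34.1% of all genes were called with NB9464 TCM and 35.3% with NBT3L TCM. Nqo1, a quinone reductase, rose by 0.72 with NB9464 TCM and 1.29 with NBT3L TCM, and Furin, a convertase, fell (−0.25 and −0.29, lost without SJ1 in both and without SJ3 and SJ5 respectively). No other of the 6 was called with TCM, the carboxylase Ggcx included (0.28 in each). R788 raised Nqo1 (0.57) and Furin (0.47) and lowered Vkorc1l1 (−0.48) without TCM, beside 26.6% of all genes called, and the 1 lower gene became 2 without SJ2 or SJ7. In NB9464 TCM R788 gave 0 calls by DESeq2, 0 at an unadjusted p under 0.05 and 0 in edgeR, and in NBT3L TCM Nqo1 (−0.57) and Vkorc1l1 (−0.39, lost without SJ5 or SJ11) were lower, beside 7.24% of all genes.

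Nuclear receptors, among which the liver X receptors are known to induce Mertk in macrophages, made up the last list, with 9 of 10 tested. NB9464 TCM raised 1 and lowered 1 (17.2% and 16.9% of all genes) and NBT3L TCM raised 2 and lowered 2 (18% and 17.3%). Pparg fell 5.31-fold with NB9464 TCM (−2.41 ± 0.32, adjusted p = 5.2e-13) and 5.36-fold with NBT3L TCM (−2.42 ± 0.32, adjusted p = 5.8e-13), and Ppard rose by 0.96 and 1.18. NBT3L TCM in addition lowered Nr4a1 (−1.29) and raised Nr1h3, the gene of the liver X receptor LXR alpha (0.89). No other gene of the list passed in these contrasts, apart from 1 more lowered by NB9464 TCM when SJ3 was left out, when only the compared libraries were fitted or when a mean of 50 counts was required. R788 without TCM raised 5 and lowered 1, beside 11.6% and 15% of all genes, with Pparg at −1.66, Rxra at 0.89, Rxrb at 0.57 and Ppard at 0.56. In NB9464 TCM it raised 2 (5.79% of all genes), Rxrb (0.48) and Nr1h3 (0.45, lost without SJ4 or SJ9), and in NBT3L TCM 3 (5.33% of all genes), Nr1h3 (0.59), Rxrb (0.38, lost whichever of its 4 libraries was left out) and Rxra (0.32, lost without SJ6 or SJ12). By DESeq2 0 genes of the list were lower with R788 in either TCM, where an unadjusted p under 0.05 gave 0 in NB9464 TCM and 2 in NBT3L TCM and edgeR called 0 in each. In NBT3L TCM 1 was lower without SJ11 and with only the compared libraries fitted.

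**Figure D4:**
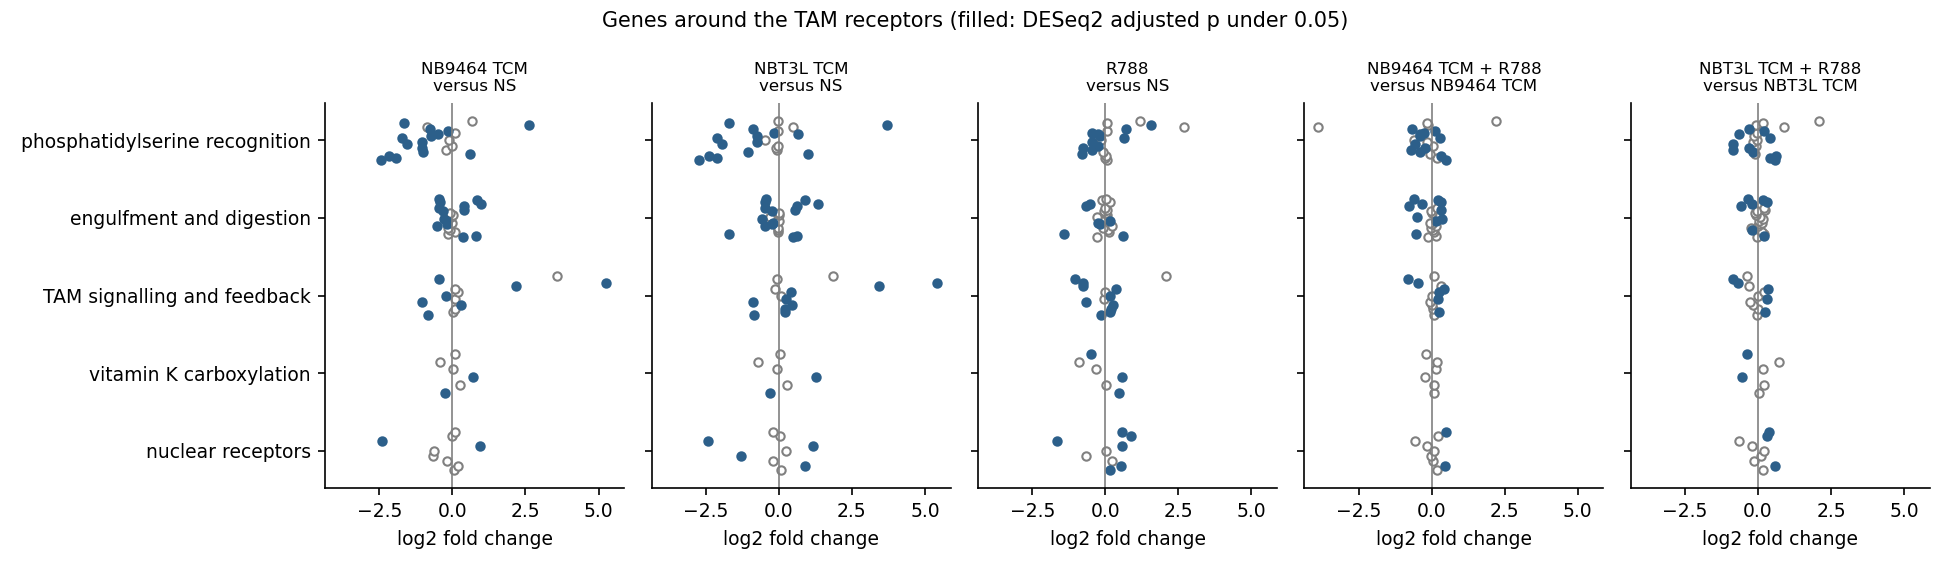
Log2 fold changes of the tested genes of 5 lists around the TAM receptors in 5 comparisons, 1 point per gene, filled where the DESeq2 adjusted p was under 0.05. In the TCM panels most filled points of phosphatidylserine recognition lie below 0 (13 of 15 and 11 of 14), and the points farthest to the right are Socs3 at 5.24 and 5.41.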

How the data were processed

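RNA of 12 BMDM libraries was sequenced after poly(A) selection. The deposited table held raw read counts per Ensembl gene, not scaled for depth or length. The authors' mapping, by their methods, was to mm10 with STAR, and quantification was with Salmon, whose versions are STAR 2.6.1d and Salmon 1.4.0 in the submitters' processing notes, which also list SAMtools 1.9, Picard 2.26 and MultiQC 1.11. The counting settings, strand and treatment of multiply mapped reads were not given in the sources used here. Labels name paired-end reads, the methods single reads, and 65.2% to 67.9% of counts from 1 to 40 were even, so counts may hold both mates. Methods state triplicates, whereas the labels give 2 libraries a group. No columns were left unused.

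Groups came from the labels. The annotation was GENCODE M21 (GRCm38), which named 54165 of 54232 genes and whose merged exon lengths equaled the deposited lengths for 97.3%. TPM was computed from counts and these lengths. The 16281 genes reaching 10 counts in 2 or more libraries entered DESeq2 1.42.0 (R 4.3.3), fitted once over all libraries with a mean per group. Contrasts were tested by two-sided Wald tests without shrinkage, with Benjamini-Hochberg adjustment under the default DESeq2 settings. These leave some genes of low count without an adjusted p, as Tyro3 in R788 versus NS. Such genes were treated as not called, and shares of all genes refer to the 16281. Calls were made at an adjusted p under 0.05. Ratios were compared by exact permutation of libraries. Alternatives were edgeR 4.0.16 with TMM, TMM in DESeq2, no count filter, a mean of 50 counts, counts divided by 2, only the compared libraries, apeglm 1.24.0 and leaving out each library in turn, for ratios also as the mean of differences within strata, chosen after seeing the data. The fits and permutations were tested on simulated data. Chi-square per degree of freedom within replicate pairs was 6.34 to 29.4, above sampling noise.

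The members and lists were chosen with earlier results of these data known. Named were the members, Tyro3, per list and contrast up to 4 called genes of largest change whose mean normalized count reached 100, and for each member the 5 genes of highest correlation. Genes that this rule names but the text does not are not reported here. Ggcx, the remaining nuclear receptors and genes too low to test were named outside that rule, after their values were seen. Marker genes were named as fixed lists. Promoters were read from RefSeq for all 4 members, and proteins were not analysed here.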

Additional observations from a re-analysis of the deposited data

Results flagged for a closer look

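Under the same treatment, 6 effects on Axl, Mertk and Gas6 differed between media by a test of the difference itself (DESeq2, two-sided). The R788 effect on Axl was higher in NB9464 TCM by 1.60 than without TCM (adjusted p = 1.72e-05) and by 1.66 than in NBT3L TCM (adjusted p = 0.000375, and 0.0576 in edgeR). Setting each of the 2 libraries of a group against each of the 2 of the other gives 4 comparisons, which are neither matched nor independent. With R788 Axl was higher in 4 of 4 in NB9464 TCM and lower in 4 of 4 in the other media. The TCM effect on Mertk differed by 1.20 between NB9464 TCM and NBT3L TCM (adjusted p = 7.8e-36), with Mertk higher in NB9464 TCM in 4 of 4 such comparisons. The R788 effect on Mertk was lower in NBT3L TCM than without TCM (−0.39, adjusted p = 0.0252), a call not made by edgeR (adjusted p = 0.065) and lost in 7 of 8 fits with 1 library left out. The R788 effect on Gas6 was lower in NB9464 TCM than without TCM (−0.50, adjusted p = 0.000122) and than in NBT3L TCM (−0.44, adjusted p = 0.023). The last was not called by edgeR (adjusted p = 0.187) and was lost in 5 of 8 fits with 1 library left out.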

How the results depend on the processing

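No member or ratio result that passed the threshold changed sign. Among results that did not pass, 2 values under other settings and 19 with 1 library left out, of 10 results in all, had the opposite sign. Of 295 member and ratio values under other settings, 286 stayed on their side of the threshold and 9 lost it, and of 352 with 1 library left out 321 stayed, 25 lost it and 6 gained it. Under edgeR the lost values were Axl with R788 in NB9464 TCM (0.67, adjusted p = 0.0506), the Axl difference of R788 effects between the TCM (1.64, adjusted p = 0.0576), the Mertk difference for NBT3L TCM against no TCM (−0.38, adjusted p = 0.065), Gas6 with R788 in NB9464 TCM (0.22, adjusted p = 0.0827) and the Gas6 difference between the TCM (−0.45, adjusted p = 0.187). Gas6 with R788 in NB9464 TCM also lost its call with counts divided by 2 (0.23, adjusted p = 0.054) and with only the compared libraries (0.23, adjusted p = 0.237), as did the Gas6 difference between the TCM with only those libraries (−0.44, adjusted p = 0.088). As a difference of medians, the R788 effect on Gas6 to Pros1 was 0.54 (exact permutation p = 0.111). The cause was not tested. The Axl difference between the TCM had no adjusted p with only the compared libraries fitted and was left out there.

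With each library left out in turn, Axl ranged from 0.53 to 0.84 for R788 in NB9464 TCM, from −1.38 to −0.67 in NBT3L TCM and from −0.54 to −0.31 averaged over media. Mertk ranged from 0.33 to 0.40 for R788 in NBT3L TCM, and its differences of R788 effects from no TCM from −0.39 to −0.21 for NB9464 TCM and from −0.47 to −0.31 for NBT3L TCM. Gas6 ranged from 0.14 to 0.31 for R788 in NB9464 TCM, and its difference between the TCM from −0.53 to −0.36. As plain means with 1 library left out, in which the media are no longer balanced between the arms, the R788 difference was −1.22 to −0.64 for Axl to Mertk and 0.17 to 0.78 for Gas6 to Pros1, so these ranges say nothing of the stability of the R788 effect. As means of within-medium differences, added after seeing the data, they were −1.08 to −0.84 and 0.44 to 0.55, and Axl to Mertk passed without SJ4 (−0.98) or SJ10 (−0.98). A group left with 1 library was assumed to vary like the others.

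Genes called in the difference of R788 effects between the TCM numbered 115, against 21 in edgeR, 272 with only the compared libraries and 46 to 76 with 1 library left out. No paired analysis was possible because the groups share no replicate number. With 2 libraries per group, effects on Pros1 within its intervals were not detectable.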
